A study of Homo sapiens with 2 samples.

Results

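A set of 10 genes for contractile proteins and for the response to transforming growth factor beta (TGF-β) was followed in nonadherent cells of an endothelial-to-hematopoietic transition (EHT) culture. The genes were chosen by symbol, out of 32738 genes measured, and were *ACTC1*, *ACTA2*, *TAGLN*, *MYL9*, *CNN1*, *TPM1*, *TPM2*, *ANKRD1*, *CTGF* and *TGFBI*, all of them detected. In the study, CD34+ cells made from the human induced pluripotent stem cell line IPS11 were cultured until day 5 on plates that were uncoated or coated with the adhesion protein VCAM1, the Notch ligand DLL4, or DLL4 and VCAM1 together. Cells of the 4 conditions were marked with antibody hashtags and captured as 1 single-cell RNA library, in which each mRNA molecule was counted once by its unique molecular identifier (UMI). No label ties a hashtag to its coating, so the coatings were not compared, and because wells were pooled before capture there were no replicates and no p-value was computed. All intervals are exact 95% intervals for counting error only, and a count of 0 is given with the share that 3 counts would make.

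Smooth muscle cells, heart muscle cells and activated stromal cells build contractile bundles from actin and myosin. Tropomyosin, calponin and transgelin bind along the actin filament, and the serum response factor and its partners switch many of the genes on through a promoter sequence called the CArG box. TGF-β, which signals through SMAD proteins, and the stretch-sensing YAP and TAZ proteins, which act with TEAD factors, raise a set of matrix and signalling genes that includes *CTGF*, *ANKRD1* and *TGFBI*.

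Of 10836 cell barcodes, 8488 carried a call for a single hashtag and 7550 also had at most 36000 UMIs, 6000 genes and 18% mitochondrial UMIs. Among these, 63 cells (0.834%, interval 0.642 to 1.07) held at least 20 UMIs of *COL1A1*, *COL1A2* and *COL3A1* summed, the genes of fibrillar collagens made by mesenchymal cells, and are called collagen cells here. The comparison was with 7258 blood cells, which held a UMI of the leukocyte genes *PTPRC* or *SPN* and fewer than 3 collagen UMIs. A further 117 cells had 3 to 19 collagen UMIs, and 112 had fewer than 3 and no leukocyte UMI. Median depth was 18636 UMIs in collagen cells and 18448.5 in blood cells, while the median mitochondrial share was 8.86% and 13.1%. Of the 63 collagen cells, 27 also held a UMI of *PTPRC* or *SPN*. The limits on UMIs and genes removed 31 further barcodes with at least 20 collagen UMIs, and the mitochondrial limit removed 6. Without the limits on UMIs and genes there were 94 collagen cells and 7616 blood cells, so these limits took a larger share of collagen cells. The collagen barcodes removed by any limit had a median of 42381 UMIs, so the like median depths hold for kept cells only. The collagen count also leaned on a single hashtag: without the cells of hashtag 0255 it was 28.

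Mesenchymal markers were compared where their mean level over both groups was at least 5 UMIs in 1000000 UMIs (counts per 1000000, CPM). Of these, 9 of 9 were at least 4-fold higher in collagen cells than in blood cells, beside 9.75% of 10293 genes. Among them was *COL5A1*, itself a collagen gene, at 364 against 1.16 CPM. Only *PDGFRB* and *THY1*, at 10.0 and 6.78 CPM, were above 5 CPM in blood cells. The others reached the mean only through the collagen cells, so the count is a description. Of 5 smooth muscle markers, 3 reached the mean and 2 of these were at least 4-fold higher. The 5 together were at 126 CPM in collagen cells and 21.8 in blood cells. *LMOD1*, of smooth muscle, and *DES*, of muscle in general, were present at 25.4 and 8.76 CPM, whereas *MYH11*, the heavy chain that defines mature smooth muscle, gave 1 UMI in all collagen cells. Of 5 endothelial genes, *CDH5* and *CLDN5* were at 0 UMIs, *KDR* and *TEK* were at 6.13 and 8.76 CPM against 0.435 and 0.963 in blood cells, and *ESAM* was at 23.7 in both. *CD53*, *CORO1A* and *LAPTM5*, the leukocyte markers that did not define the blood cells, were at 16.7, 71.0 and 22.8 CPM in collagen cells against 72.4, 460.3 and 144 in blood cells.

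Promoter sequence was taken from RefSeq (GRCh38.p14) for the 8 members that matched, with 12 annotated starts between them; *TAGLN* and *MYL9* had no entry. The 250 bases before each start were searched on both strands. The sequences were CATTCC, the MCAT element bound by TEAD factors, CAGAC, a SMAD-binding sequence, and the CArG box. The CArG box was searched only as CCWWWWWWGG, with W for A or T. Sequences 1 base away from this were not counted, such as CCCTATATGG and CCTTGTTTGG in an *ACTA2* window and CCCTATTTGG in an *ACTC1* window. CATTCC was held by 4 of the 12 promoters, against 11.9% of 35116 promoters of the same length, CAGAC by 7 of the 12 against 38.0%, and the CArG box by 1 of the 12 against 1.16%. In *ANKRD1*, the GTCTG match at position -132 from the start shared a base with the GGAATG match at position -128. The promoters below are shown because they hold a CArG box or CATTCC, read 5′ to 3′ along the gene with these in capitals (CATTCC reads GGAATG on the other strand). A match describes the letters only.
ACTC1 (chr15:34795550-34795799, minus strand): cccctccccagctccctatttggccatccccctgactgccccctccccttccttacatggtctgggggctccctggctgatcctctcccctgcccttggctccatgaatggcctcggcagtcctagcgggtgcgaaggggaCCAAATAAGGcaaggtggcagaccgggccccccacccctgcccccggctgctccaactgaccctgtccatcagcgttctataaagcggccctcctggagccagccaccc
ACTA2 (chr10:88952774-88953023, minus strand; its other start lies upstream): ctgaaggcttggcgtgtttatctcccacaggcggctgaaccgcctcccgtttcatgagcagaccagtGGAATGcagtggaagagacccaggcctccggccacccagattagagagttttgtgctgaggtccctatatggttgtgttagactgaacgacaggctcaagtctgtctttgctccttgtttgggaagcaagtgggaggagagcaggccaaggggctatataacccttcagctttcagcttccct
ANKRD1 (chr10:90921088-90921337, minus strand): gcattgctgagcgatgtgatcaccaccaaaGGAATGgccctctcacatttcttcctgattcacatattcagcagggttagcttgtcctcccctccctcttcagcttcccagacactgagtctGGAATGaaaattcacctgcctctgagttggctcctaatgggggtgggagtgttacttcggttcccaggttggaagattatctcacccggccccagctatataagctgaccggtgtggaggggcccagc
CTGF, listed as CCN2 (chr6:131951373-131951622, minus strand): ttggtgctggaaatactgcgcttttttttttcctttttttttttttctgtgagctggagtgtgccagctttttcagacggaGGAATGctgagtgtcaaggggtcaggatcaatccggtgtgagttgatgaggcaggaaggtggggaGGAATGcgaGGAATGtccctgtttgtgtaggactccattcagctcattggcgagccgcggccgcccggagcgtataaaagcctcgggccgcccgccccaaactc
The *CTGF* window held 3 GGAATG matches, that of *ANKRD1* 2 and that of *ACTA2* 1, and the *ACTC1* window held the CArG box CCAAATAAGG at position -109. The third start of *ACTC1* held CATTCC at position -174. None of the 3 motifs was found in the windows of *TPM2* and *TGFBI*.

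All 10 members were higher in collagen cells than in blood cells. Every member passed the 4-fold limit, beside 9.75% of the 10293 genes with a mean of at least 5 CPM, and the median log2 ratio of the members was 8.82 against -0.14 for those genes. As 7 of the members were below 5 CPM in blood cells and reached that mean only through the collagen cells, their count and median describe the set and are no test of it. Together the members made up 1.96% of all UMIs in collagen cells and 0.0317% in blood cells.

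**Figure D1:**
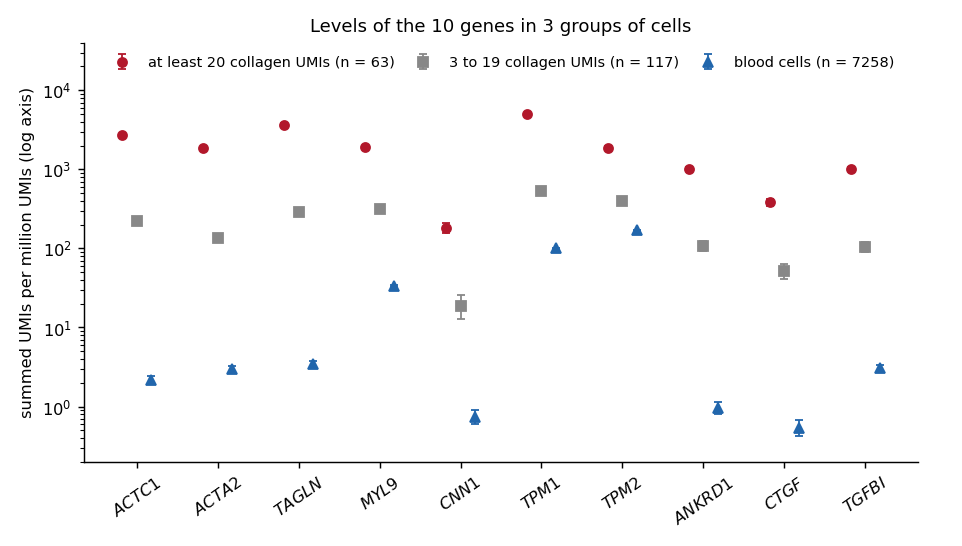
Level of each gene in collagen cells (circles), in cells with 3 to 19 collagen UMIs (squares) and in blood cells (triangles), as CPM (summed UMIs per 1000000 UMIs) on a log axis, with exact Poisson intervals. Every circle lies above its square and every square above its triangle; the gap between circle and triangle is narrowest for *TPM2*, at 1868 against 170.0.

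Among the actins, *ACTC1*, the actin of heart muscle and of early muscle development (chromosome 15, 35082308 to 35087790; positions of the members are those of the GENCODE annotation on hg19), had 3062 UMIs in collagen cells, or 2684 CPM (2589 to 2780.3). In blood cells it had 296 UMIs, or 2.14 CPM (1.91 to 2.40), so the ratio was 1252 (1111 to 1415). It was also the most uneven member among collagen cells: its count ran from 0 to 510 UMIs a cell with a median of 27, and the 5 highest cells held 45.6% of it. *ACTA2*, smooth muscle α-actin (chromosome 10, 90694831 to 90751096), stood at 1846 CPM (1768 to 1926) in collagen cells and at 2.97 (2.69 to 3.27) in blood cells, a ratio of 622 (559 to 693). Its cells ranged from 0 to 141 UMIs with a median of 24. Of the 370 words of 31 bases in the last 400 bases of *ACTC1* transcripts, 5 were shared with *ACTA2*, where reads of the actins cannot be told apart.

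*TAGLN*, or transgelin, an actin-binding protein of smooth muscle (chromosome 11, 117070086 to 117078180), was at 3692 CPM (3582 to 3805) in collagen cells and at 3.43 (3.13 to 3.76) in blood cells, a ratio of 1076 (978 to 1185). A single collagen cell had none, and the median was 55 UMIs, with a highest count of 203. An unnamed gene of the annotation overlaps its 3′ end and shared 25.3% of the words there, but is not among the genes of the files. *CNN1*, or calponin, a brake on actomyosin in smooth muscle (chromosome 19, 11649582 to 11661138), was at 181 CPM (157 to 207) against 0.739 (0.602 to 0.897), a ratio of 244 (192 to 313). With a median of 2 UMIs a cell, *CNN1* had no UMI in 11 of the 63 collagen cells. At this depth a missing count does not show absence, and whether these cells lacked *CNN1* was not tested. 

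*MYL9*, the regulatory light chain of smooth muscle and non-muscle myosin (chromosome 20, 35169900 to 35179850), was at 1901 CPM (1822 to 1983) in collagen cells. In blood cells it was at 33.2 CPM (32.3 to 34.2), a ratio of 57.2 (54.3 to 60.2). *TPM1* and *TPM2* encode the α and β tropomyosins that coat actin filaments in muscle and in other cells. *TPM1* (chromosome 15, 63334819 to 63364114) was at 5072 CPM (4942 to 5204) against 100.0 (98.3 to 102), a ratio of 50.7 (49.2 to 52.3). *TPM2* (chromosome 9, 35681989 to 35690053) was at 1868 (1789 to 1949) against 170.0 (168 to 172), and its ratio of 10.99 (10.5 to 11.5) was the smallest of the 10. *MYL9*, *TPM1* and *TPM2* were found in every one of the 63 collagen cells, with lowest counts of 4, 14 and 5 UMIs.

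Among the response genes, *ANKRD1*, a stretch-induced protein of the muscle sarcomere and a YAP target (chromosome 10, 92671853 to 92680844), was at 1020.1 CPM (962 to 1080.5) in collagen cells and at 0.970 (0.813 to 1.15) in blood cells, a ratio of 1051 (878 to 1267). Its counts ran from 0 to 73 UMIs a cell, with a median of 14. *CTGF*, a secreted matrix protein that TGF-β and YAP induce (chromosome 6, 132269316 to 132272512), was at 382 (347 to 419.7) against 0.536 (0.421 to 0.673), a ratio of 713 (556 to 925). *TGFBI*, a matrix protein named for its induction by TGF-β (chromosome 5, 135364677 to 135399507), was at 1003 (945 to 1062) against 3.04 (2.76 to 3.35), a ratio of 329.6 (294 to 369). It was present in all 63 collagen cells, from 1 to 54 UMIs with a median of 16. Against all other kept cells with fewer than 20 collagen UMIs, the ratios were 531 for *ACTC1*, 503 for *TAGLN*, 423 for *ANKRD1*, 389 for *ACTA2* and 319 for *CTGF*, and under a mitochondrial limit of 10% those of *TPM1*, *MYL9* and *CNN1* were 111, 86.8 and 391. The ratios of the response genes lay within the range of those of the contractile genes. Without the 27 collagen cells that held a leukocyte UMI, the 10 members together were at 21255 CPM, and in those 27 cells at 17358; what part blood RNA in these barcodes has in the levels was not tested.

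**Figure D2:**
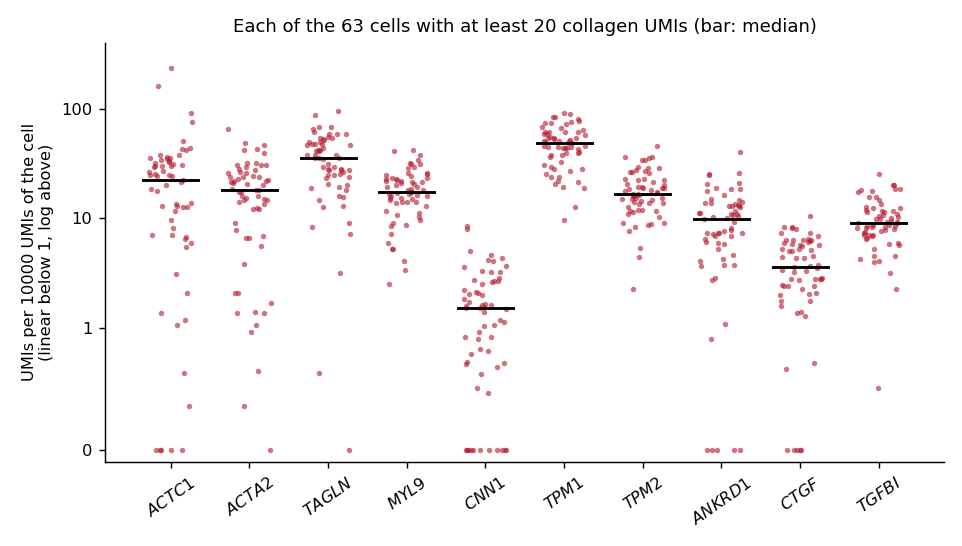
UMIs of each gene per 10000 UMIs of the cell in each of the 63 collagen cells (points) with the median (bar); the axis is linear below 1 and logarithmic above. *TPM1* lies in a narrow band while *ACTC1* spreads from 0 to over 100, and the cells at 0 for *CNN1* are those with no UMI of it.

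Free RNA was not measured on its own, so *ACTC1*, *ACTA2* and *TAGLN* in blood cells were set beside the neutrophil-like cells among them. In neutrophil-like cells (at least 50 UMIs of *MPO*, *AZU1*, *PRTN3* and *ELANE*), which should lack a contractile program, *ACTC1*, *ACTA2* and *TAGLN* stood at 1.94, 2.27 and 3.66 CPM, or 0.0722%, 0.123% and 0.0990% of their levels in collagen cells. The collagen genes *COL1A1*, *COL1A2* and *COL3A1* stood at 0.114%, 0.256% and 0.185% of theirs in the same cells. Collagen cells were chosen for many UMIs of these genes and blood cells, the neutrophil-like among them, for few. The collagen shares were thus bounded by the choice of cells and cannot serve as a measure of free RNA. After each cell was thinned to 5000 UMIs, 1.04% of all blood cells (0.817 to 1.30) held *ACTC1*, against 0.644% of neutrophil-like cells (0.237 to 1.40), at median depths of 18448.5 and 19045 UMIs before thinning; unthinned, the share of blood cells was 3.76%. The shares of *ACTA2* (1.49% against 1.29%) and *TAGLN* (1.52% against 1.72%) were as close. Blood cells did not exceed neutrophil-like cells beyond counting error in these shares. The neutrophil-like cells are part of the blood cells and few held these genes, so the shares could hardly show a difference. On full counts *ACTA2* was 2.72 times (1.65 to 4.44) as high in erythroid-like as in neutrophil-like cells. In blood cells of no class it was 1.47 times (1.03 to 2.14) as high. For *ACTC1* and *TAGLN* the intervals of the same ratios held 1. The shares were not read as expression, and free RNA as their source was not tested.

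*ACTC1*, *ACTA2* and *TAGLN* together reached 20 UMIs in 59 of the 63 collagen cells and in 24 of the 117 cells with 3 to 19 collagen UMIs. None of the 7258 blood cells reached it, which allows a share of up to 0.0413%, and none of the 112 cells without leukocyte UMIs did. At a lower limit of 5 UMIs, 5 blood cells passed, each with no collagen UMI; 2 of them were CD34 progenitor-like, 2 belonged to no class and 1 was megakaryocyte-like, the highest with 8 UMIs of *ACTC1*. The highest blood cell held 10 UMIs of the 3 genes.

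A few low members did differ between blood classes by more than counting error. *TGFBI* was at 9.16 CPM in macrophage-like cells (at least 10 UMIs of *C1QA*, *C1QB* and *C1QC*) and at 2.68 in CD34 progenitor-like cells (at least 2 UMIs of *CD34* and no class limit met), a ratio of 3.42 (2.57 to 4.52). *ACTA2* was at 6.17 in erythroid-like cells (at least 50 globin UMIs), 2.47 times (1.62 to 3.65) its level in CD34 progenitor-like cells. *CNN1* was at 1.42 in blood cells of no class, 2.58 times (1.66 to 4.08) its level in CD34 progenitor-like cells. These rest on 76, 31 and 56 UMIs in the higher group, and the part of free RNA in them was not tested. The classes are ranges cut from marker counts rather than cell types: within 20% of the limit lay 155 cells for the macrophage-like, 54 for the erythroid-like and 176 for the neutrophil-like class.

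*TPM1*, *TPM2* and *MYL9* were the members at the highest share of blood cells, and each had its own order of classes. *TPM1* was highest in megakaryocyte-like cells at 389.6 CPM (326 to 462) and next in erythroid-like cells at 205 (192 to 218). It was lower, at 149 (137 to 162), in cells that met more than 1 class limit and at 138 (135 to 141) in CD34 progenitor-like cells, then 73.0 (70.4 to 75.7) in cells of no class, 32.0 (23.5 to 42.6) in eosinophil-like cells (at least 20 UMIs of *PRG2* and *EPX*), 23.8 (21.6 to 26.1) in neutrophil-like and 22.6 (19.5 to 26.1) in macrophage-like cells. The last pair did not differ beyond counting error, with a ratio of 1.05 (0.88 to 1.25), whereas CD34 progenitor-like cells had 6.11 times (5.29 to 7.10) the level of macrophage-like cells.

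*MYL9* had another order. It was at 114 CPM (81.2 to 156) in megakaryocyte-like cells and at 110.1 (103 to 117) in macrophage-like cells, which did not differ beyond counting error (ratio 1.04, 0.73 to 1.43). Cells that met more than 1 class limit had 72.3 (64.1 to 81.3), blood cells of no class 50.3 (48.1 to 52.6), erythroid-like cells 28.1 (23.6 to 33.1), CD34 progenitor-like cells 16.4 (15.4 to 17.4), neutrophil-like cells 11.6 (10.1 to 13.3) and eosinophil-like cells 10.9 (6.23 to 17.7). Macrophage-like cells thus had 6.72 times (6.14 to 7.35) the level of CD34 progenitor-like cells. *TPM2* was at 267 (215 to 327) in megakaryocyte-like cells, 204 in cells of no class, 187 in cells that met more than 1 class limit, 180.4 in CD34 progenitor-like, 169.6 in macrophage-like and 148 in erythroid-like cells, and lower in neutrophil-like and eosinophil-like cells at 71.6 and 33.4. After thinning, *TPM2* was found in 56.8% of CD34 progenitor-like cells (55.0 to 58.6) and in 25.4% of neutrophil-like cells (22.7 to 28.3), so this difference was also seen at equal depth.

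**Figure D3:**
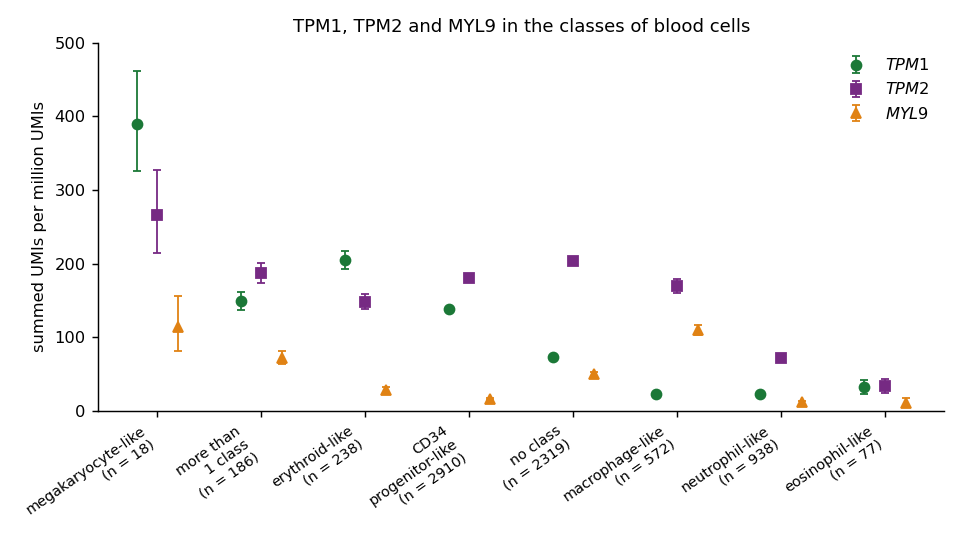
Level of *TPM1* (circles), *TPM2* (squares) and *MYL9* (triangles) in each class of blood cells, as CPM (summed UMIs per 1000000 UMIs) with exact Poisson intervals, on an axis that starts at 0. *TPM1* is highest in the 18 megakaryocyte-like cells at 389.6 and lowest in macrophage-like cells at 22.6, where *MYL9* stands at 110.1.

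Megakaryocytes, the parent cells of platelets, use non-muscle actomyosin to shape proplatelets, so their overlap with the set was examined. Only 18 cells met the megakaryocyte limit (at least 10 UMIs of the platelet chemokines *PF4* and *PPBP*) and no other class limit. Their 421 chemokine UMIs were all *PPBP*, and *PF4* was at 0, but *GP9*, *TUBB1*, *ITGB3* and *ITGA2B*, for platelet receptors and tubulin, were 15.8, 17.6, 15.7 and 5.09 times as high as in the other blood cells. Within 20% of the limit lay 16 cells. A further 83 cells met the limit together with another class limit, and 80 of the 101 cells in all met that for globin.

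In the 18 cells, *TPM1* was 3.92 times (3.28 to 4.65), *MYL9* 3.46 times (2.46 to 4.73) and *TPM2* 1.57 times (1.26 to 1.93) as high as in the other blood cells. *TPM1* ran from 2 to 20 UMIs in these cells and was found in all of them. *MYL9* was found in 13 of the 18, and its highest cell, with 10 UMIs, held 25.6% of its UMIs. Of the 6 members that reached a mean of 5 CPM, 5 were at least 2-fold higher, beside 9.73% of 9616 genes, but *ACTC1* (5 UMIs), *ACTA2* (3) and *TGFBI* (4) reached that mean only through these few UMIs and 4 of the 5 *ACTC1* UMIs lay in 1 cell. *TAGLN* and *CNN1* had 2 and 1 UMIs, and *ANKRD1* and *CTGF* had none. The call for *MYL9* rested in part on hashtag 0253, without which its ratio was 1.89. Without hashtag 0252 only 3 members reached the mean. Of these, *TPM1* at 4.64 times and *MYL9* at 4.16 times passed 2-fold, beside 12.9% of 9589 genes.

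With all 101 cells at the limit, the 4 members with a mean of at least 5 CPM were at least 2-fold higher, beside 8.11% of 9641 genes. These were *MYL9* at 4.40 times (3.89 to 4.96), *TPM1* at 3.30 (3.04 to 3.57), *TGFBI* at 2.97 (1.74 to 4.76, 18 UMIs) and *TPM2* at 2.10 (1.95 to 2.26). *TGFBI*, at 2.96 CPM in the other blood cells, reached that mean only through these 101 cells. *ACTA2*, below that mean, had 14 UMIs and a ratio of 2.35 (1.27 to 3.99), while *TAGLN* had 4 UMIs and a ratio of 0.565 (0.153 to 1.46). A single cell with 55 UMIs of *MYL9* and 110 of *TPM2* held 19.3% and 15.3% of their UMIs in the 101 cells. Cells chosen by receptors instead (173 cells with at least 10 UMIs of *GP9*, *ITGB3* and *TUBB1*) had *TPM1* at 3.07 times (2.89 to 3.27), *TGFBI* at 3.03 (2.05 to 4.33), *MYL9* at 2.90 (2.59 to 3.23) and *TPM2* at 1.54 (1.44 to 1.64); 3 of 4 members passed 2-fold, beside 7.27% of 9609 genes, and *TGFBI*, at 2.88 CPM in the other blood cells, again reached the mean only through the chosen cells. Of the 101 cells 82.2% were among these 173, and of the 173 cells 48.0% were among the 101, so the choices are not independent. The 173 cells were also high in globin genes, at 8564 CPM summed against 665 in the other blood cells. What part erythroid RNA has in these ratios was not tested.

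Megakaryocyte-like cells thus had more *TPM1*, *MYL9* and, less so, *TPM2* than the other blood cells, while the other 7 members gave at most 5 UMIs each. In megakaryocyte-like cells *TPM1*, *MYL9* and *TPM2* stood at 7.68%, 6.01% and 14.3% of their levels in collagen cells. Macrophage-like cells were near this for *MYL9*, at 5.79%, and blood cells of no class had *TPM2* at 10.9%. Of a list of 24 other contractile genes, 11 of the 20 that reached the mean were at least 2-fold higher in the 18 cells, beside 9.73% of all genes tested, and 0 were lower. Their median log2 ratio was 1.19 against -0.10 for all genes tested. *ACTG2* had 1 UMI. The 5 smooth muscle markers are part of that list, so they are no separate count. Of these, *MYH11*, *LMOD1* and *DES* had no UMI, and *SMTN*, or smoothelin, was 2.86 times (1.23 to 5.66, 8 UMIs) as high. *MYLK*, the kinase of myosin light chains, was 17.5 times (13.6 to 22.1) as high. *CALD1*, or caldesmon, was 13.2 times (10.3 to 16.7) as high. *VCL*, or vinculin, which ties actin to adhesion sites, was 5.41 times (4.43 to 6.54) as high. *TGFB1*, the ligand that platelets store, was at 428 CPM in these cells and 131 in other blood cells, a ratio of 3.25 (2.75 to 3.83), and its latency partner *LTBP1* was 14.3 times (11.4 to 17.6) as high.

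The 10 members were found together in the same cells. After thinning to 5000 UMIs, a collagen cell held a median of 9 members, with quartiles of 8 and 10 and a lowest value of 4, and 56 of the 63 cells (88.9%, 78.4 to 95.4) held at least 8. Without thinning, 47 of the 63 held all 10. A blood cell held a median of 1 member, the highest held 5, and 0 of 7232 held 8 or more, which allows a share of up to 0.0415%. At least 3 members were found in 3.37% of blood cells (2.97 to 3.82); unthinned the share was 23.9%. By class the thinned share was 27.8% (9.69 to 53.5) of the 18 megakaryocyte-like cells, 6.30% of erythroid-like, 3.51% of macrophage-like, 3.27% of CD34 progenitor-like and 0.429% of neutrophil-like cells.

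Pairs of members were common among collagen cells. The least often shared pairs involved *CNN1*, the member with the fewest UMIs, found after thinning in 32 of the 63 cells. *ACTC1* and *ACTA2* were found together in 49 of the 63 cells (77.8%, 65.5 to 87.3), where the product of their shares gives 70.7%. In blood cells, *MYL9* and *TPM1* met in 2.79% of cells (2.43 to 3.20), below the product of 3.55%, while *TPM1* and *TPM2* met in 15.4% (14.6 to 16.3), above the product of 13.7%. Within CD34 progenitor-like cells the first pair met in 2.41% (1.88 to 3.03) with a product of 2.46%, so that class showed no shortfall beyond counting error, while blood cells of no class did, at 3.26% (2.57 to 4.06) with a product of 4.23%.

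**Figure D4:**
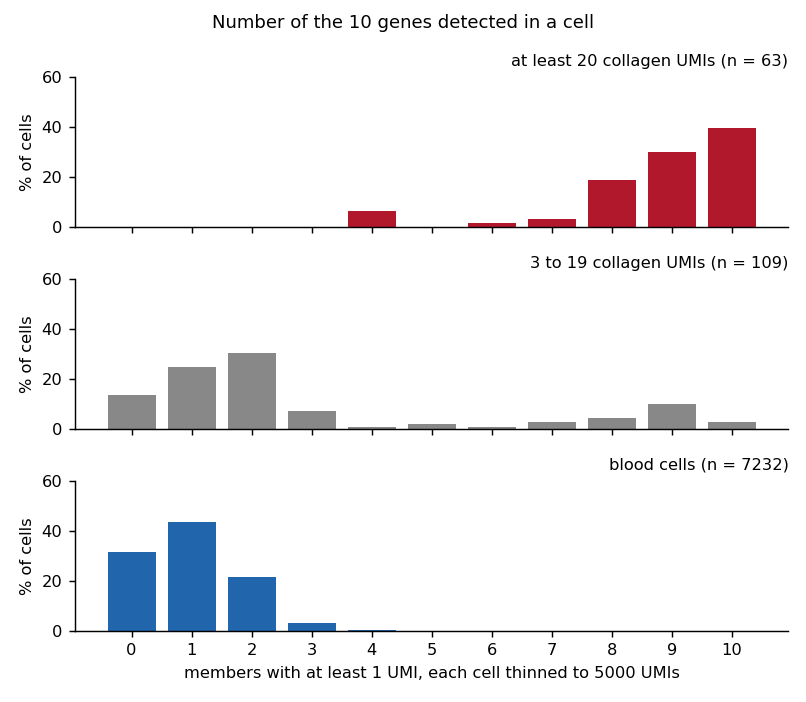
Share of cells (vertical axis, in %) by the number of the 10 genes with a UMI after each cell was thinned to 5000 UMIs, in collagen cells, cells with 3 to 19 collagen UMIs and blood cells. The 63 collagen cells peak at 10 and the blood cells at 1, with the cells between split into a low and a high group.

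The cells with 3 to 19 collagen UMIs fell into these 2 ranges rather than between them. With 10 to 19 collagen UMIs (28 cells, median 9625.5 UMIs), 18 of the 23 cells deep enough to thin held 7 to 10 members, and *ACTC1* stood at 1025 CPM and *TPM1* at 2677. With 3 to 9 collagen UMIs (89 cells), 81 of 86 cells held 0 to 3 members, 4 held 7 to 10, and *ACTC1* stood at 47.6 and *TPM1* at 83.2. The collagen itself differed: *COL1A2* made up 83.4% of the collagen UMIs at 3 to 9 and 17.0% at 10 to 19, and 43 of the 89 cells but 1 of the 28 met the macrophage limit. In those 43 cells *MYL9* was at 169 CPM (141 to 201) and *TPM2* at 200.0 (169 to 235), with *ACTC1* at 1 UMI and *ANKRD1* at none.

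On either side of the limit of 20 UMIs the counts of the members overlapped. The 9 cells with 15 to 19 collagen UMIs held 7 to 40 UMIs of *ACTC1* (median 11), 2 to 21 of *ACTA2* (median 9), 13 to 112 of *TPM1* (median 46) and 6 to 75 of *TAGLN* (median 26). The 9 cells with 20 to 24 held 3 to 30 of *ACTC1* (median 20), 3 to 33 of *ACTA2* (median 20), 15 to 94 of *TPM1* (median 35) and 7 to 54 of *TAGLN* (median 28). A leukocyte UMI was present in 8 of the first 9 and 4 of the other 9. The 10 cells with at least 100 collagen UMIs had 1049 CPM of *ACTC1*, against 3155 in the 53 cells with 20 to 99. *ACTA2* (1409 against 1971), *ANKRD1* (716 against 1108), *TPM2* (1578 against 1951) and *TAGLN* (3379 against 3783) were also lower there, with intervals that did not overlap. The intervals overlapped for *TPM1* (5340.3 against 4994), *MYL9* (1891 against 1904) and *TGFBI* (1143 against 962), and for *CNN1* and *CTGF*. These intervals leave out the spread between cells. Of the 2794 *ACTC1* UMIs in the 53 cells, single cells held 510 and 398. Hashtag 0255 gave 32 of the 53 cells and 3 of the 10, and median depth was 17445 and 26529.5 UMIs. Whether the levels fall with collagen, apart from hashtag and depth, was not tested.

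**Figure D5:**
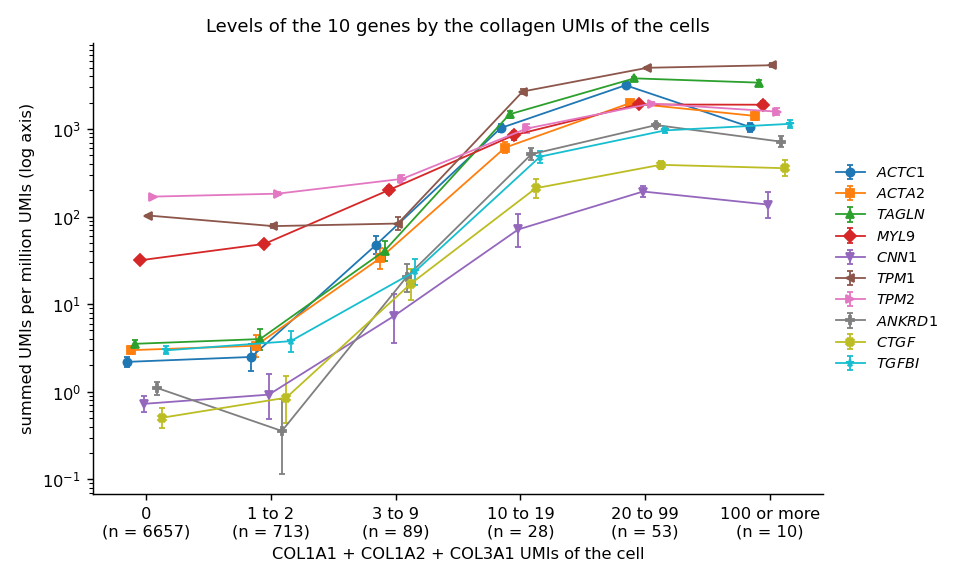
Level of each gene, as CPM (summed UMIs per 1000000 UMIs) on a log axis with exact Poisson intervals, in cells grouped by their collagen UMIs; cell numbers stand under each group. Most genes rise steeply between the 3 to 9 and the 10 to 19 group, such as *ACTC1* from 47.6 to 1025 and *TPM1* from 83.2 to 2677. *ACTC1* had already risen before that step, from 2.49 in the 1 to 2 group, though only 9 of the 89 cells of the 3 to 9 group held it. *MYL9*, *TPM1* and *TPM2* start from a level that blood cells also have.

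Among the 63 collagen cells, the levels of the members went together to unequal extents. These correlations describe cells of 1 library that share depth and culture, and carry no p. Spearman's coefficient was 0.76 between *TAGLN* and *MYL9*, 0.71 between *ACTA2* and *TAGLN*, and 0.67 between *ACTC1* and *ACTA2*, with a median of 0.29 over all 45 pairs. *TPM1* was nearly unrelated to *ACTA2* (0.04) and *ACTC1* (-0.10). *TGFBI* and *ANKRD1* had the lowest medians with the other members, 0.08 and 0.14, and *ANKRD1* with *CTGF* gave -0.01. With collagen itself the coefficients ran from -0.18 for *ANKRD1* to 0.23 for *CTGF*. Depth and mitochondrial share moved with some members: *ACTC1* with UMIs at -0.30 and *TPM1* at 0.33, and *TPM1* with mitochondrial share at -0.44. The hashtags were pooled, with 35 of the 63 cells from hashtag 0255. Its median cell had the most *ACTC1* (2974 CPM) and the least *TPM1* (3947 CPM) of the 4 hashtags. The part of depth, mitochondrial share and hashtag in the coefficients was not tested. 

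The summed share of the 10 members ran from 0.332% to 5.04% of a collagen cell's UMIs, with a median of 1.90%. Of 5477 genes found in at least 30% of these cells, those whose level went most closely with this sum were *MYL6*, the essential light chain of the same myosins (Spearman's coefficient 0.72), *PRSS23* (0.62), *TUBA1A* (0.58), *SERPINH1*, a collagen chaperone (0.58), and *AKAP12* (0.54). *CSRP1*, *MYL12A* and *PDLIM7*, from the list of other contractile genes, were also among the first 10. *PRSS23* resembled the members in a further way, at 703 CPM in collagen cells and 0.804 in blood cells.

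Collagen cells were unevenly spread over the hashtags, with 8 of 2136 cells for hashtag 0252, 6 of 1996 for 0253, 14 of 1847 for 0254 and 35 of 1571 for 0255 (2.23%, 1.56 to 3.08). Over the 4 hashtags *TAGLN* ran from 3326 to 3944 CPM and *MYL9* from 1698 to 2000.2. Summed over cells, *ACTC1* was at 816 (662 to 994) in the 6 cells of hashtag 0253 and at 2458 to 3405 in the others. The 2 highest *ACTC1* cells, with 510 and 398 UMIs, were both of hashtag 0254. By the median cell, *ACTC1* was instead lowest in hashtag 0254 at 493 CPM, against 892 in 0253, 1666 in 0252 and 2974 in 0255. *TPM1* was at 6521 (6133 to 6927) in hashtag 0252 and 4362 (4186 to 4544) in hashtag 0255. Cells of a hashtag share their wells, and the intervals leave out the spread between cells. In blood cells *ACTC1* was at 2.02 to 2.27 in all 4 hashtags, and *TPM1* ran from 123 in hashtag 0252 to 80.1 in hashtag 0255.

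Of the other genes that the same programs use, some were high in collagen cells and some were not. In the list of 24 other contractile genes, 11 of the 22 that reached the mean were at least 4-fold higher and 0 lower, beside 9.75% of all genes tested that were higher. This list includes the 5 smooth muscle markers given above, so those are no separate count. The median log2 ratio of the list was 2.06 against -0.14 for all genes tested. *CALD1* was at 2349 CPM against 16.5 in blood cells (ratio 143, 135 to 151), while *MYL6* (3506 against 969.9), *MYL12A* (893 against 344), *TPM4* (668 against 245), *TAGLN2* (611 against 484) and *MYL12B* (578 against 314) were below 4-fold. Smooth muscle γ-actin *ACTG2* was at 52.6 against 0.101.

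Of 16 heart muscle genes, 8 reached the mean, 7 of them at least 4-fold higher and 1, *MYL4*, lower (14.9 against 66.6 CPM). The higher ones were *MYL7* at 50.8 CPM, *PLN* at 49.95, *TNNI1* at 42.1, *NPPB* at 36.8, the heart transcription factor *NKX2-5* at 35.9, *TNNT2* at 26.3 and *TNNC1* at 14.9. In blood cells these 7 were at 0.0362 to 0.869 CPM, so they reached the mean only through the collagen cells, and their count, beside 9.75% of all genes, is a description; the same holds for other listed genes that were low in blood cells. The adult heart heavy chains *MYH6* and *MYH7* had 0 UMIs, as did *MYL2*, and *TTN* had 1. Of 5 skeletal muscle genes, only *CKM* reached the mean, and *MYOD1*, *MYOG*, *MYF5* and *ACTA1* had 0 UMIs.

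Among TGF-β family ligands, 4 of the 5 that reached the mean were at least 4-fold higher in collagen cells: *INHBA* at 290.1 CPM (ratio 96.1, 82.9 to 111), *GDF15* at 82.4, *BMP4* at 58.7 and *TGFB2* at 55.2. This count and those of receptors, SMADs and inhibitors stand beside 9.75% of all genes compared. In blood cells the 6 ligands of the list summed to 136 CPM, nearly all of it *TGFB1*. *INHBA*, *GDF15*, *BMP4* and *TGFB2* were each below 5 CPM there and reached the mean only through the collagen cells. The same holds for *SMAD3* and *PMEPA1*, so these counts are descriptions. *TGFB1* was similar in both, at 177 and 132. Of the receptors, 3 of 7 passed, among them *TGFBR1* at 55.2 against 12.1 (ratio 4.55, 3.48 to 5.86), but not *TGFBR2* at 20.2 against 16.6. Of the signalling SMADs only *SMAD3* passed (34.2 against 2.03; 1 of 5), and of the inhibitors only *PMEPA1* (44.7 against 4.16; 1 of 7), with *SMAD7* at 15.8 against 6.07.

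Other targets of TGF-β and YAP were at least 4-fold higher in collagen cells in 8 of 11 cases, beside 9.75% of all genes compared. Genes low in blood cells, such as *CYR61* and *MYOCD*, reached the mean only through the collagen cells, so this count and that of the factors below are descriptions. *ID3*, a target of the bone morphogenetic branch, was at 1067 against 27.5 CPM (ratio 38.8, 36.3 to 41.4), *ID1* at 437 against 66.6, *TGFB1I1* at 179 against 4.89 and *CYR61* at 147 against 0.449. *THBS1* and *LTBP1*, at 3.12 and 2.45 times, were under the limit; in megakaryocyte-like cells they were 21.1 and 14.3 times as high as in other blood cells. Of 10 transcription factors, 6 passed, namely *MYOCD* (13 UMIs against 1), *TEAD1*, *TEAD2*, *TEAD3*, *YAP1* and *WWTR1*, whereas *SRF* was alike in both at 21.9 and 22.2 CPM.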

How the data were processed

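Nonadherent cells of 4 coatings, hashtagged and pooled into 1 library of 3′ ends, were analysed from the gene counts that the authors deposited, in UMIs per gene and cell, and from a table of hashtag calls. Per the labels, reads were processed with Cell Ranger 6.0.1 on hg19; the study's methods used hashtag counts from that pipeline to remove empty droplets and doublets, and the limits behind each call are not given in the sources used here. Barcodes called as more than 1 hashtag or as none were left out. Cells over 36000 UMIs, 6000 genes or 18% mitochondrial UMIs were removed, leaving 7550 cells. Scrublet (scanpy 1.11.5) was run as an alternative and called 63 of them, of which 0 were collagen cells. That is 0.834% of the kept cells at an expected rate set to 6%, so the 0 cannot show that collagen cells hold no doublets.

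UMIs were summed per group and divided by the group's total (counts per 1000000 UMIs, CPM). They count molecules at the 3′ end and were not divided by gene length. Ratios carry exact conditional binomial intervals, levels exact Poisson intervals and shares Clopper-Pearson intervals, at 95%, which cover counting error only; a group at 0 was set to 3 UMIs for a median. Genes with a mean over both groups of at least 5 CPM were compared. Cells of more than 5000 UMIs were thinned to 5000 for shares, which left out 26 blood cells. Gene positions are from the GENCODE annotation lifted to hg19. Counts of *ITGB3* are the sum of its 2 rows, and *PECAM1* was not analysed here. Python 3.11.15, numpy 2.4.6, scipy 1.17.1 and pandas 2.3.3 were used, and the code was tested on simulated data.

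Cell classes rest on limits of marker counts. The text names the 10 members and, from each list, up to 6 genes of highest level in collagen or megakaryocyte-like cells; other genes of the lists were named after their values were seen, and 1 gene counted in a list is not reported here by name. The members and lists were chosen with earlier results of these data known. Alternatives changed the collagen limit, the reference cells, the cell limits, the weighting of cells, the fold, the depth of thinning and the hashtags included.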

Additional observations from a re-analysis of the deposited data

Results flagged for a closer look

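Barcodes called as more than 1 hashtag entered no comparison, and the 10 genes were high in some of them. Of 1339 such barcodes, 40 (2.99%, 2.14 to 4.05) held at least 20 collagen UMIs, against 1.18% of barcodes with a single hashtag. A barcode with more than 1 hashtag can hold more than 1 cell, and a fixed limit is easier to reach at higher depth. The shares are thus not like for like, and no enrichment was read from them. These 40 barcodes carried 18879.9 CPM of the 10 genes, against 343 in the other barcodes with more than 1 hashtag, and 30 of them held all 10 genes. Their median depth was 47782.5 UMIs, and 31 also held *PTPRC* or *SPN*. Of 1009 barcodes with no hashtag, 0 reached 20 collagen UMIs, which allows a share of up to 0.297% at 3 counts. However, 2 of these 1009 held at least 20 UMIs of *ACTC1*, *ACTA2* and *TAGLN* together, as did 43 of the 1339 barcodes with more than 1 hashtag. No limit on UMIs, genes or mitochondrial share was set for these barcodes.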

How the results depend on the processing

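All 10 members stayed at least 4-fold higher in collagen cells under the alternatives tried for that count, and none of the results recomputed there changed direction. Outside them, the ratios of *TAGLN* and *CNN1* in megakaryocyte-like cells went from 1.71 and 3.99 with 18 cells to 0.565 and 0.657 with all 101, each with an interval that held 1. The median log2 ratio was 8.08 against all other kept cells and 8.62 with at least 10 collagen UMIs. The members together (19647 CPM) were at 17283 with at least 10 collagen UMIs, 21113 with at least 50, 19294 as a mean over cells, 21255 without cells holding *PTPRC* or *SPN*, 19382.5 without a mitochondrial limit, and 19433 to 19903 with a hashtag left out. Collagen cells numbered 33 with at least 50 collagen UMIs, 36 under a mitochondrial limit of 10%, and 28 to 57 with a hashtag left out, the lowest without 0255. Members higher in megakaryocyte-like cells numbered 2 at that mitochondrial limit (1 cell, with 51.7% of all genes past 2-fold), 3 with at least 20 *PF4* and *PPBP* UMIs, 3 against erythroid-like cells, 3 against macrophage-like cells, 1 at a 4-fold limit, and 2 to 5 with a hashtag left out, the lowest without 0252. The number was 3 in cells chosen by platelet receptors. That choice, the use of all 101 cells and the correlations without leukocyte UMIs were added after seeing the data. How many members reached the mean, and the share of all genes past the limit, changed too. With the main limits 5 of 6 members passed, beside 9.73% of all genes. Without 0253 it was 4 of 6 beside 12.4%, without 0252 2 of 3 beside 12.9%, and at the 10% mitochondrial limit 2 of 3. Counts given without a share of all genes are descriptions. The share of blood cells with several members was 0.263% for 4 or more, 0.648% at 2000 UMIs, 11.1% at 10000 and 23.9% without thinning. Of 130 alternative ratios in collagen cells 87 stayed within counting error and 43 moved, from 9.88 to 1515; 8 moved by over 1.5 times, 5 of them against all other kept cells (*ACTC1* from 1252 to 531) and 3 under the 10% mitochondrial limit (*TPM1* from 50.7 to 111). No paired analysis was possible because there is 1 library and no replicate. With 18 megakaryocyte-like cells and no replicate culture, differences below about the width of the intervals given could not be seen.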

Other observations

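Cells with 3 to 9 collagen UMIs differed by whether they met the macrophage limit. In the 46 that did not, *ACTC1* had 71 UMIs (92.3 CPM, 72.1 to 116), *ANKRD1* 31 (40.3, 27.4 to 57.2) and *TPM2* 259 (337, 297 to 380.3). In the 43 that did, *ACTC1* had 1 UMI, *TAGLN* 3 and *ANKRD1* none. Over all 89 cells, 9 held *ACTC1* and 9 held *ANKRD1*, with at most 17 and 7 UMIs a cell. These levels thus rest on few cells and do not describe most of the 46. *COL1A2* stood at 2.43% of its collagen-cell level in macrophage-like blood cells, against 0.256% in neutrophil-like cells. Of the 89 cells, 45 were of hashtag 0253.

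*MYL4*, a myosin light chain of the atria and of embryonic muscle, was the heart gene with the opposite pattern. It was at 398 CPM in the 18 megakaryocyte-like cells and at 65.8 in other blood cells, a ratio of 6.06 (5.07 to 7.17), and at 14.9 in collagen cells. *ESAM*, an adhesion protein of endothelium and platelets, was at 169.9 in megakaryocyte-like cells against 23.3 in other blood cells (ratio 7.29, 5.52 to 9.45), and at 23.7 in collagen cells.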
